A study of Mus musculus with 4 samples.

Results

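The genes described here encode the small nucleolar, small Cajal body and spliceosomal RNAs of mouse hematopoietic stem cells (HSCs). A row of the count tables was taken when GENCODE M21, the annotation used here, gives it the biotype snoRNA, scaRNA or snRNA, when its symbol begins with Snora, Snord, Scarna or Rnu, and when it had at least 10 counts in at least 1 library. The members were thus selected on their counts, and 41 of the 160 rows with such a biotype and symbol that both pairs of libraries list passed. They comprise 20 of 41 H/ACA box snoRNAs (Snora), 9 of 97 C/D box snoRNAs (Snord), 9 of 9 scaRNAs (Scarna) and 3 of 13 Rnu-named RNAs. Of the 119 rows left out, 83 had no count in any library and 36 had between 1 and 9 counts in their highest library. A further 4 rows, Rnu3b1 to Rnu3b4, were listed only for the CD41low/CD9low pair, were kept apart and had 0 counts in both of its libraries.

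The RNA came from 4 pools of sorted cells, with 1 library for each genotype of Gfi1b, a transcriptional repressor of blood stem cells and megakaryocytes, in each of 2 populations. The titles of all 4 samples read Gfi1, which is the paralog of Gfi1b. The sample characteristics and the study name Gfi1b, which is followed here. The Gfi1b KO mice were Gfi1b fl/fl, and the mice labelled Gfi1b WT, per the study's methods, were Gfi1b wt/fl, so that the controls are heterozygous for the floxed allele. The labels give the strain as C57Bl6, and per those methods both genotypes carry the tamoxifen-activated Rosa-Cre, which is expressed broadly from the Rosa26 locus, and both were given tamoxifen, whereas the description deposited with the data has floxed mice with and without the Cre. HSCs were sorted as Lin− cKit+ Sca1+ CD48− CD150+ cells and the CD41low/CD9low HSCs additionally by low CD41 and CD9, from marrow of several mice that was pooled before sorting. Hence no library has a replicate, and ratios within a population are given with an exact 95% interval that covers counting error only. A count per gene does not separate the deleted Gfi1b exons from the others: Gfi1b had 9256 counts in the HSC library labelled WT and 49910 in that labelled KO, 611 and 9741 in CD41low/CD9low HSCs, so this count is higher in both KO libraries and cannot check the labels.

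Box C/D snoRNAs guide the methylation, and box H/ACA snoRNAs the pseudouridylation, of ribosomal RNA, while scaRNAs do the same for the spliceosomal RNAs in Cajal bodies. A few members, among them U3 (Rnu3a), U8 (Snord118) and U17 (Snora73a and Snora73b), serve the cleavage of the ribosomal RNA precursor instead. The spliceosomal U RNAs, a different group, form the core of the spliceosome. Most mammalian snoRNAs and many scaRNAs are released from introns of host genes, and most of these RNAs have no poly(A) tail. The libraries were made with a kit that selects poly(A) RNA, so that the counts describe what passed this selection and not the amount in the cell.

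The sequences of the members that the results below turn on are shown first, as annotated in GENCODE M21 on GRCm38, 5′ to 3′. Snora73a and Snora73b are shown because they are near copies with unlike KO/WT ratios (the level in KO over that in WT) in HSCs. They have the same length of 205 bases, 7 mismatches and no gap (96.6% identity), and share at most 56 bases in 1 run. Their positions are chr4:132352775-132352979 (reverse strand) and chr4:132352322-132352526 (reverse strand). The ACA that ends H/ACA RNAs, 3 bases before the 3′ end, is in capitals.
Snora73a: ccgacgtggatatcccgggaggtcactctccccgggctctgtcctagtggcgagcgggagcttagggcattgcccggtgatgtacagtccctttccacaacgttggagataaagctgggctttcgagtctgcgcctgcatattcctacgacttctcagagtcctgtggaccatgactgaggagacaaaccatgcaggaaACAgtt
Snora73b: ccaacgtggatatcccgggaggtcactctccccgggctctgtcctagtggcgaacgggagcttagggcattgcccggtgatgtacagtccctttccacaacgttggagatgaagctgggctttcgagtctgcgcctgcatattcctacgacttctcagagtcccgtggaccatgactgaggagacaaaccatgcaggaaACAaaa
Snora7a, Snora78 and Snora57 had the highest fitted ratios of CD41low/CD9low HSCs to HSCs among members with 50 or more counts in a library, and are drawn the same way. They lie at chr6:115807975-115808114 (reverse strand), chr17:24719676-24719803 (reverse strand) and chr19:8888538-8888685 (reverse strand).
Snora7a: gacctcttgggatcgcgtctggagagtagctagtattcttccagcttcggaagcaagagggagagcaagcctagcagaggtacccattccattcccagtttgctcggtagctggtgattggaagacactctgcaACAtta
Snora78: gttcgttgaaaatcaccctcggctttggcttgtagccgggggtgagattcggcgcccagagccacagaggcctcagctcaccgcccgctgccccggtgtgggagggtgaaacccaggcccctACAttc
Snora57: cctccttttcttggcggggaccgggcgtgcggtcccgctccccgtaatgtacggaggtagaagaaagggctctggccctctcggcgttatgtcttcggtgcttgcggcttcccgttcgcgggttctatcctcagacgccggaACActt

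Rnu3a and Snord118 are box C/D RNAs of ribosomal RNA processing, and Snord17 is the most counted Snord member. Capitals mark the core of the C box (TGATGA) and the last D box (CTGA). They lie at chr10:40258467-40258680 (forward strand), chr11:69073427-69073561 (forward strand) and chr2:144265979-144266216 (reverse strand).
Rnu3a: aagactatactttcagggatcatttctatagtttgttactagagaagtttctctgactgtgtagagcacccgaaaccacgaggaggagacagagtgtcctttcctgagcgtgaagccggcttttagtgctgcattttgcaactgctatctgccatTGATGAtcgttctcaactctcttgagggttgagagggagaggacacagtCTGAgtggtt
Snord118: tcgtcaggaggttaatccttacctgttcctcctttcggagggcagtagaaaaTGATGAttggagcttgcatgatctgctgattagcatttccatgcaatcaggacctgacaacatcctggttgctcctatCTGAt
Snord17: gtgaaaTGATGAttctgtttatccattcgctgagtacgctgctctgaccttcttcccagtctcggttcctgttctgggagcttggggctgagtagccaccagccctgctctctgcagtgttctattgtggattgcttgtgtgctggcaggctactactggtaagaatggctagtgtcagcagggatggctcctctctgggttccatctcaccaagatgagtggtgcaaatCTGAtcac
Rnu11 and Rnu12, the U11 and U12 RNAs of the minor spliceosome, were the only Rnu-named spliceosomal RNAs with 10 or more counts. They lie at chr4:132270080-132270213 (reverse strand) and chr15:83149644-83149794 (forward strand). The exact string searched for as an Sm site, ATTTTTG, is in capitals in Rnu12. Rnu11 holds ATTTTTTG, with an extra T, which the exact search did not match. The search thus cannot tell whether Rnu11 has an Sm site.
Rnu11: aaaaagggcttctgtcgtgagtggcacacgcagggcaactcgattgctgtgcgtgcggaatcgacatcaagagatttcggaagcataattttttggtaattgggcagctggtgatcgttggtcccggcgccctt
Rnu12: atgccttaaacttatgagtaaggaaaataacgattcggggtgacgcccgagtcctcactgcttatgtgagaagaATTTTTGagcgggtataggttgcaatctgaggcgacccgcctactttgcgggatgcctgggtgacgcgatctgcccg

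On the strand of the RNA, TGATGA followed by CTGA was found in 8 of 9 Snord members (88.9%) and in 73 of all 97 Snord rows (75.3%). An ACA 3 bases before the end was found in 17 of 20 Snora members (85.0%) and in 34 of all 41 Snora rows (82.9%). CTGA by itself is short and stood in 137 of the 160 rows (85.6%). ATTTTTG stood in 4 of the 160 rows (2.5%). Such matches describe the annotated letters only.

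The counts were concentrated in a few RNAs. Of the counts on members, 76.9% fell on the 3 scaRNAs Scarna2, Scarna10 and Scarna13, and 96.3% on the 8 members with 1000 or more counts in a library, which also include Snora73a, Snora73b, Snora43, Snord17 and Rnu3a. There were 22 members with 50 or more counts in a library and 19 with fewer. Just inside the limit were Snora75 and Snord104 with 10 counts in their highest library, Scarna8 with 11, and Snora34, Snora69 and Snord83b with 12. Just outside it were Snora30, Snora62, Snord49a and Snord55 with 9.

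Where a value is given for each of the libraries of a pair, WT comes before KO. Total counts on genes were 50781007 and 41690708 for the HSC pair and 12732079 and 19123185 for the CD41low/CD9low pair, at which 3 counts correspond to between 0.0591 and 0.236 CPM, that is counts scaled to a library total of 1000000. HSC markers summed to between 1639 and 2216 CPM over 6 genes, of which Kit alone gave between 989 and 1262 CPM. The markers did not all go the same way between the pairs. Slamf1 stood at 82.7 and 106 CPM in HSCs and at 31.0 and 61.1 CPM in the CD41low/CD9low pair. Procr, Ly6a and Hlf were higher in both CD41low/CD9low libraries than in both HSC libraries. Among genes of lineage cells that the sort removes, Cd3e, Ms4a1 and Ly6g stood at 0.314 CPM or less in each library, Cd48 at between 1.26 and 7.75 CPM and Itgam at between 9.09 and 33.9 CPM. The 4 megakaryocyte genes Itga2b, Cd9, Pf4 and Gp9 summed to 899.7 and 1023 CPM in the HSC libraries and to 272 and 364.5 CPM in the CD41low/CD9low libraries; their part in the results was not tested. The genes listed in the tables and the depth differed between the 2 pairs, and neither can be told apart from the population. Fewer cells of a type and less RNA per cell cannot be told apart in such pools either.

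Long rows held nearly all the counts. All 8 rows of 200 or more bases were members, and 7 of them had 1000 or more counts, whereas 6 of 90 rows under 100 bases were members and 57 of those 90 had no count. Rows of 100 to under 150 bases gave 24 members of 53, and rows of 150 to under 200 bases 3 of 9. The rows of 200 or more bases took 90.3% of the class counts in WT HSCs, 94.1% in KO HSCs, and 96.2% and 96.4% in the CD41low/CD9low pair. Per length, the median member under 100 bases had 1.97 CPM per kilobase in WT HSCs, and the median member of 200 or more bases had 323 CPM per kilobase. Over the 41 members, which share their libraries, length and summed CPM per kilobase had a Spearman rho of 0.696.

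**Figure D1:**
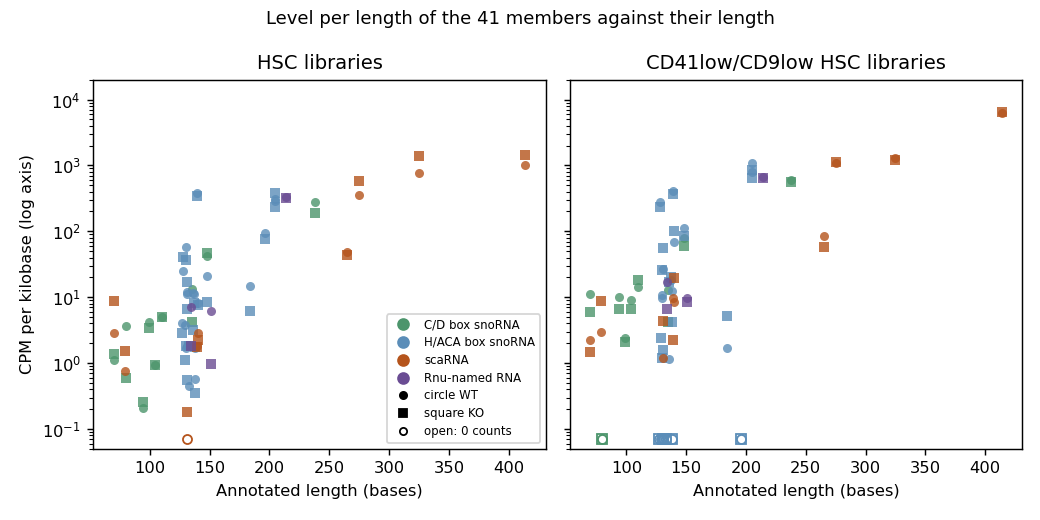
Level of the 41 members per length in the HSC libraries (left) and the CD41low/CD9low HSC libraries (right), in CPM per kilobase on a log axis, against annotated length in bases. Colours give the RNA class, circles WT and squares KO libraries, and open symbols at the bottom 0 counts; the 8 members of 200 or more bases lie mostly at the top, and members of similar length near 130 bases span several orders of magnitude.

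Each of the RNA classes took a larger share of counts in the CD41low/CD9low libraries than in the HSC libraries. ScaRNAs summed to 773.7 CPM in WT and 1233 CPM in KO HSCs, whereas the CD41low/CD9low pair had 3313 and 3408 CPM. H/ACA box snoRNAs stood at 221 and 209.6 CPM in WT and KO HSCs and at 517.6 and 433.7 CPM in the CD41low/CD9low pair. Both classes stood apart between the pairs. For C/D box snoRNAs the values were 76.7 and 53.9 CPM in WT and KO HSCs, and 161.6 and 149.6 CPM in the CD41low/CD9low pair. Rnu-named RNAs stood at 73.2, 68.0, 146.1 and 141.5 CPM in the same order. In none of the classes did the libraries of one pair overlap with those of the other. The level of the CD41low/CD9low pair over the HSC pair was 3.44 for scaRNAs (95% interval 3.40 to 3.47), 2.17 for H/ACA (2.12 to 2.21), 2.33 for C/D (2.24 to 2.41) and 2.02 for Rnu-named RNAs (1.95 to 2.10). These intervals come from counts summed over the libraries of a pair and cover counting error only. They leave out the spread between the libraries of a pair, such as 773.7 and 1233 CPM for scaRNAs in HSCs.

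One RNA dominated each class, namely Scarna2 with 65.6% of scaRNA counts, Snord17 with 86.8% of C/D, Snora73a with 36.6% of H/ACA and Rnu3a with 98.2% of Rnu-named counts. Without these rows the ratio between the pairs was 1.52 for scaRNAs, 1.71 for C/D, 1.88 for H/ACA and 2.31 for Rnu-named RNAs. For scaRNAs the ratio thus rested largely on Scarna2, and without it the pairs lay closer, at 359 and 633 CPM in WT and KO HSCs and 744 and 729 CPM in the CD41low/CD9low pair.

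**Figure D2:**
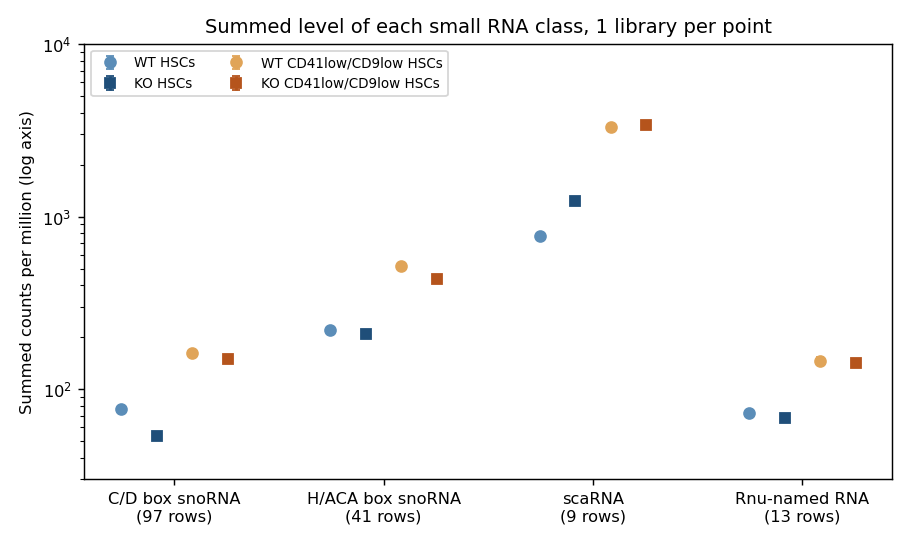
Summed CPM (log axis) of all rows of each small RNA class listed in both pairs, 1 library per point, with exact 95% counting intervals that are mostly smaller than the symbols. Each class lies higher in both CD41low/CD9low HSC libraries than in both HSC libraries.

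In the quasi-likelihood test of edgeR on all 4 libraries, with genotype as covariate and Benjamini-Hochberg adjustment over 16262 genes, 9 of the 41 members were higher in CD41low/CD9low HSCs, where 7.36% of all genes tested were. These were Snora7a, Snora78, Snora57, Scarna2, Snora73a, Snora73b, Snord17, Scarna13 and Rnu3a. Snora74a was lower, 1 of 41 members, where 10.6% of all genes were. The median log2 difference was 1.22 over the members and −0.03 over all genes tested. The fit takes the genotypes as replicates of the population difference and has 1 residual degree of freedom. Since a row enters through its highest library, these counts over members are descriptions.

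Scarna2, which guides methylation of the U2 spliceosomal RNA, was the most counted member, at 414.5 CPM in WT HSCs, 600.0 CPM in KO HSCs, 2569 CPM in the WT and 2679 CPM in the KO library of CD41low/CD9low HSCs. Its gene, chr3:108554338-108554751 on the reverse strand, is 414 bases long and overlaps no other annotated gene on that strand. Both CD41low/CD9low libraries lay far above both HSC libraries, with a fitted log2 difference of 2.33 (edgeR adjusted p = 6.66e-06). Scarna13 stood at 98.4 and 161 CPM in WT and KO HSCs and at 302 and 312 CPM in the CD41low/CD9low pair, a log2 difference of 1.22 (edgeR adjusted p = 0.000737). Scarna10, whose target is the U5 spliceosomal RNA, did not separate the pairs, at 247.0 CPM in WT HSCs, 459 CPM in KO HSCs and 416 and 397 CPM in the CD41low/CD9low pair (log2 difference 0.20, edgeR adjusted p = 0.499). Within its 325 bases, 281 bases are annotated as a second gene, Gm28967, on the same strand, which was listed only for the CD41low/CD9low pair and had 0 counts in both libraries there. A read that overlaps a pair of listed genes can be left out as ambiguous in the counting, and the part of this in the Scarna10 value was not tested.

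Among the RNAs of ribosomal RNA cleavage, Snora73a stood at 64.2 and 79.4 CPM in WT and KO HSCs and at 223 and 175 CPM in the CD41low/CD9low pair. Snora73b stood at 59.3 and 48.2 CPM in WT and KO HSCs and at 164 and 132 CPM in the CD41low/CD9low pair. The log2 differences of the near copies were alike, 1.41 for Snora73a and 1.40 for Snora73b (edgeR adjusted p = 0.00032 and 0.000106). Rnu3a stood at 71.3 and 67.6 CPM in WT and KO HSCs and at 142 and 139 CPM in the CD41low/CD9low pair (log2 difference 0.96, edgeR adjusted p = 0.00113). Within each pair the Rnu3a libraries were close to each other. The C/D RNA Snord17, in an intron of Snx5, stood at 66.2 and 44.6 CPM in WT and KO HSCs and at 141 and 135 CPM in the CD41low/CD9low pair (log2 difference 1.28, edgeR adjusted p = 0.000467).

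Among members with 50 or more counts in a library, H/ACA RNAs of lower abundance had the highest fitted ratios of CD41low/CD9low HSCs to HSCs. Snora7a, within Rpl32, stood at 1.16 and 1.05 CPM in WT and KO HSCs and at 9.50 and 14.1 CPM in the CD41low/CD9low pair (log2 difference 3.33, edgeR adjusted p = 0.000745). Snora78, within the noncoding gene Snhg9, stood at 3.15 and 5.25 CPM in WT and KO HSCs and at 36.1 and 30.4 CPM in the CD41low/CD9low pair (log2 difference 2.93, edgeR adjusted p = 0.0001). Snhg9 itself was higher there as well, with 16 and 30 counts in WT and KO HSCs against 49 and 64 counts in the shallower CD41low/CD9low libraries (log2 difference 2.73, edgeR adjusted p = 0.0275). Snora57 stood at 3.05 and 1.27 CPM in WT and KO HSCs and at 16.4 and 12.4 CPM in the CD41low/CD9low pair (log2 difference 2.69, edgeR adjusted p = 0.00103). For each of these members the lower CD41low/CD9low library lay above the higher HSC library.

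Snora74a was the exception among the abundant RNAs, with 932 and 628 counts in WT and KO HSCs and 0 counts in both CD41low/CD9low libraries. The HSC pair was at least 179-fold higher when the CD41low/CD9low pair is set to 3 counts over both of its libraries. Another snoRNA row in the same annotated gene, Mir1949, behaved likewise, with 55 and 60 counts in WT and KO HSCs and 0 in both CD41low/CD9low libraries. The part of the differing gene lists in this was not tested. Snora24, Snora23 and Snora15 also had their highest levels in HSCs, at 7.58, 2.70 and 1.48 CPM in WT HSCs, but edgeR's adjusted p for the pairs was 0.0966, 0.307 and 0.158. For Scarna3a, at 0.394 and 0.312 CPM in WT and KO HSCs and 1.18 and 2.72 CPM in the CD41low/CD9low pair, the edgeR adjusted p was 0.0877.

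Counting only whether the 2 libraries of a pair overlap with those of the other, 23 members were higher in both CD41low/CD9low libraries, 11 were higher in both HSC libraries and 7 overlapped. Over all 16262 genes, 29.3% were higher in both CD41low/CD9low libraries and 29.0% in both HSC libraries. The 7 members that overlapped include Scarna10, Snora43, Snord118, Snora16a and Rnu11. Snora43, an H/ACA RNA, had nearly level values, at 53.1, 47.1, 56.0 and 50.5 CPM in the order used above (log2 difference 0.03, edgeR adjusted p = 0.931).

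**Figure D3:**
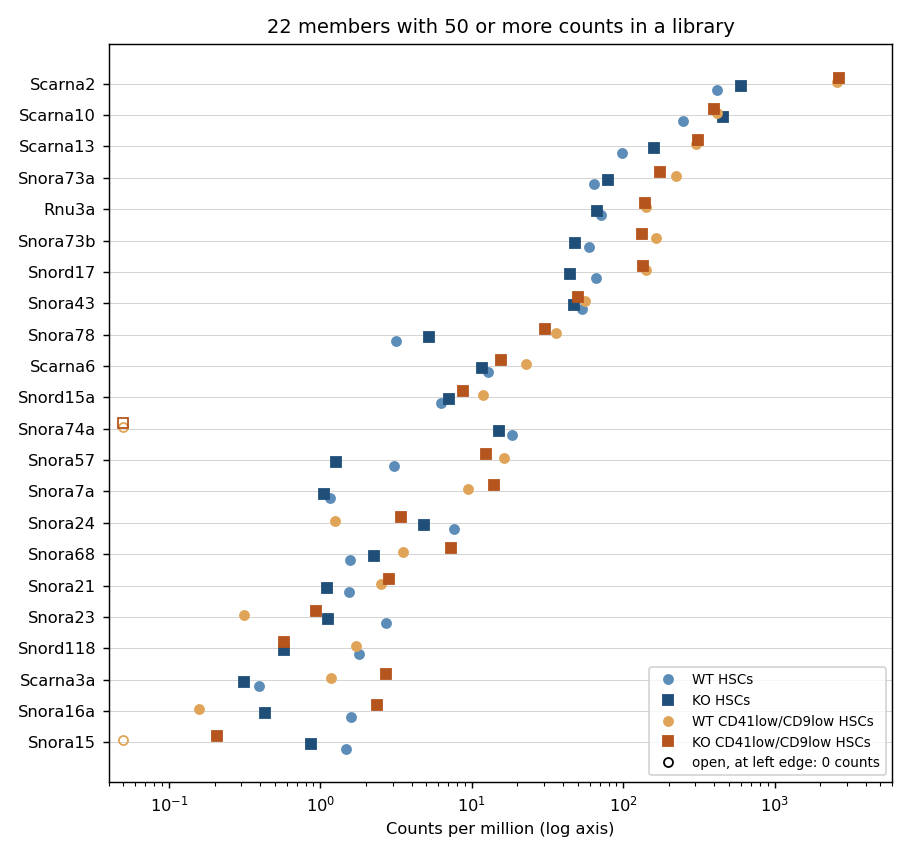
CPM (log axis) of the 22 members with 50 or more counts in a library, in each of the 4 libraries; open symbols at the left edge stand for 0 counts. Both CD41low/CD9low symbols lie right of both HSC symbols for Scarna2, Snora78, Snora57 and Snora7a, and at 0 for Snora74a.

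Within HSCs, 35 members had 10 or more counts in at least 1 library of the pair. Their median log2 KO/WT ratio was −0.27, against −0.0013 over all genes tested and −0.22 over the 71 other genes under 200 bases. The KO/WT ratio of normalized counts was above 1.5 in 5 of 35 members, where 14.1% of all genes tested were, and below 0.6 in 10 of 35, where 10.3% were. The counting interval lay above 1 in 8 members (35.6% of all genes) and below 1 in 14 (33.7% of all genes). Those above 1.5 were Scarna10, Scarna13 and Snora78 and, at low counts and named after their values were seen, Scarna9 and Snora75. The 3 members above 1.5 with 50 or more counts and the 5 below 0.6 are given below.

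In HSCs the KO library held more of the most counted scaRNAs than the WT library. These 2 libraries also differed in reads on no feature, at 80.0 in WT and 105.3 in KO for every 100 counts on genes. The CD41low/CD9low pair had 62.0 and 60.1. The part of this in the HSC ratios was not tested. Scarna10 had 12541 counts in WT and 19153 in KO HSCs; its ratio was 1.89, with an interval of 1.84 to 1.93. For Scarna13, with 4999 and 6709 counts, the ratio was 1.66 (1.60 to 1.72), and for Scarna2, with 21051 and 25016 counts, 1.47 (1.44 to 1.49). Summed over the 9 scaRNAs the ratio was 1.62 (1.59 to 1.64), against 0.961 (0.934 to 0.988) for H/ACA, 0.712 (0.675 to 0.750) for C/D and 0.941 (0.896 to 0.989) for Rnu-named RNAs. Scarna6 did not share this, with 653 and 489 counts and a ratio of 0.924 (0.820 to 1.04). Snora78 had 160 counts in WT and 219 in KO HSCs (ratio 1.69, 1.37 to 2.09), and Snora68, an H/ACA RNA, had 80 and 94 (ratio 1.45, 1.06 to 1.98).

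The lowest KO/WT ratios in HSCs belonged to less counted RNAs. Snora16a, within Snhg12, had 81 counts in WT and 18 in KO HSCs (ratio 0.274, 0.155 to 0.461). Snord118, the U8 RNA of large-subunit ribosomal RNA processing, had 92 and 24 counts (0.322, 0.196 to 0.509). Snora57 had 155 and 53 counts (0.422, 0.303 to 0.580), and Snora23, in an intron of Ipo7, had 137 and 47 (0.423, 0.297 to 0.594). The intervals of these 4 members lie wholly below 0.6. For Snora15, which overlaps an exon of Cct6a, the counts were 75 and 36 (0.592, 0.387 to 0.893). Snord17, with 3363 and 1860 counts, had a ratio of 0.683 (0.645 to 0.723), the lowest among the 8 members with 1000 or more counts.

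The near copies Snora73a and Snora73b lay on opposite sides of 1 in HSCs. Snora73a had 3260 counts in WT and 3309 in KO HSCs (ratio 1.25, 1.19 to 1.31), and Snora73b 3012 and 2008 (0.823, 0.777 to 0.871). In CD41low/CD9low HSCs both were below 1, with 2844 and 3355 counts for Snora73a (0.786, 0.748 to 0.827) and 2089 and 2532 for Snora73b (0.808, 0.762 to 0.857). Their host gene Rcc1 was also lower in the KO libraries, with a ratio of 0.694 (0.656 to 0.734) in the HSC pair and of 0.866 (0.791 to 0.948) in the CD41low/CD9low pair. Reads that align to several places were set apart in the deposited tables, so reads that match both copies alike would be missing from both values. How many such reads there were is not given in the sources used here, so the separate values are uncertain. Snora73a also shares exon sequence with Snhg3, which had 596 and 498 counts in the HSC pair and 73 and 163 in the CD41low/CD9low pair.

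The minor spliceosome RNAs were among the lowest ratios in HSCs, at few counts. Rnu11, which recognises the 5′ splice site of minor introns, had 49 counts in WT and 10 in KO HSCs (ratio 0.252, 0.114 to 0.503), and 29 and 17 counts in the CD41low/CD9low pair (0.391, 0.201 to 0.735). Rnu12, which pairs with their branch site, had 47 and 6 counts in HSCs (0.158, 0.0551 to 0.369) and 19 and 24 in the CD41low/CD9low pair (0.842, 0.442 to 1.63). Both libraries labelled KO were thus below WT for Rnu11, and for Rnu12 the interval in CD41low/CD9low HSCs includes 1. Rnu4atac and Rnu6atac were not analysed here. Over both populations the genotype log2 ratio was −1.65 for Rnu11 and −1.26 for Rnu12, with edgeR adjusted p of 0.555 and 0.683.

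The major spliceosome gave no counts under these symbols. Rnu1a1, Rnu1b1, Rnu1b2, Rnu1b6, Rnu2-10, Rnu5g, Rnu6 and Rnu6-ps2 had 0 counts in all 4 libraries, which allows at most 0.0591 CPM per row in the deepest library and 0.236 CPM in the shallowest. So did Rnu7, the U7 RNA of histone messenger RNA processing, and Rnu73b. Of the 9 spliceosomal and U7 rows, 8 share a stretch of 50 bases with another annotated gene, with Rnu6 sharing it with 167 genes and Rnu1a1 with 30, while Rnu7 shares none. Among the 41 members, 10 share such a stretch, Rnu3a with 8 genes, and among all 83 rows with no count, 33 do. Reads that align to several places were set apart in the deposited tables, at between 96.2 and 121.6 for every 100 counts on genes.

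In CD41low/CD9low HSCs, 31 members had 10 or more counts in at least 1 library of the pair, with a median log2 KO/WT ratio of −0.15 against 0.0017 over all genes tested and −0.20 over the 51 other genes under 200 bases. The ratio was above 1.5 in 7 of 31 members (13.4% of all genes tested) and below 0.6 in 6 of 31 (12%). The counting interval lay above 1 in 6 members (31.1%) and below 1 in 13 (30.4%). None of the 8 members with 1000 or more counts passed either cutoff, their ratios running from 0.786 to 1.04. Scarna2 had 32713 counts in WT and 51227 in KO (ratio 1.04, 1.03 to 1.06), Scarna13 3846 and 5969 (1.03, 0.993 to 1.08) and Scarna10 5300 and 7587 (0.954, 0.921 to 0.989).

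With 50 or more counts, 3 members stood above 1.5 in this pair and 0 below 0.6. The share of all genes at that limit is not given here, so these counts are descriptions only. Snora24, which overlaps an exon of Snhg8, had 16 counts in WT and 65 in KO (ratio 2.71, 1.55 to 5.01). Scarna3a had 15 and 52 (2.31, 1.28 to 4.42), and Snora68 had 45 and 140 (2.07, 1.47 to 2.97). Snora7a followed with 121 and 269 counts and a ratio of 1.48 (1.19 to 1.85). For each of these 4 members the KO library was the higher one, with an interval above 1. The lowest ratios at 50 or more counts were those of Scarna6 (289 and 297 counts, 0.685, 0.581 to 0.808), Snord15a, in an intron of Rps3 (150 and 167 counts, 0.742, 0.592 to 0.932), and Snora57 (209 and 238 counts, 0.759, 0.628 to 0.919). Snord118 had 22 and 11 counts and a ratio of 0.333 (0.146 to 0.717), close to its ratio in HSCs.

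**Figure D4:**
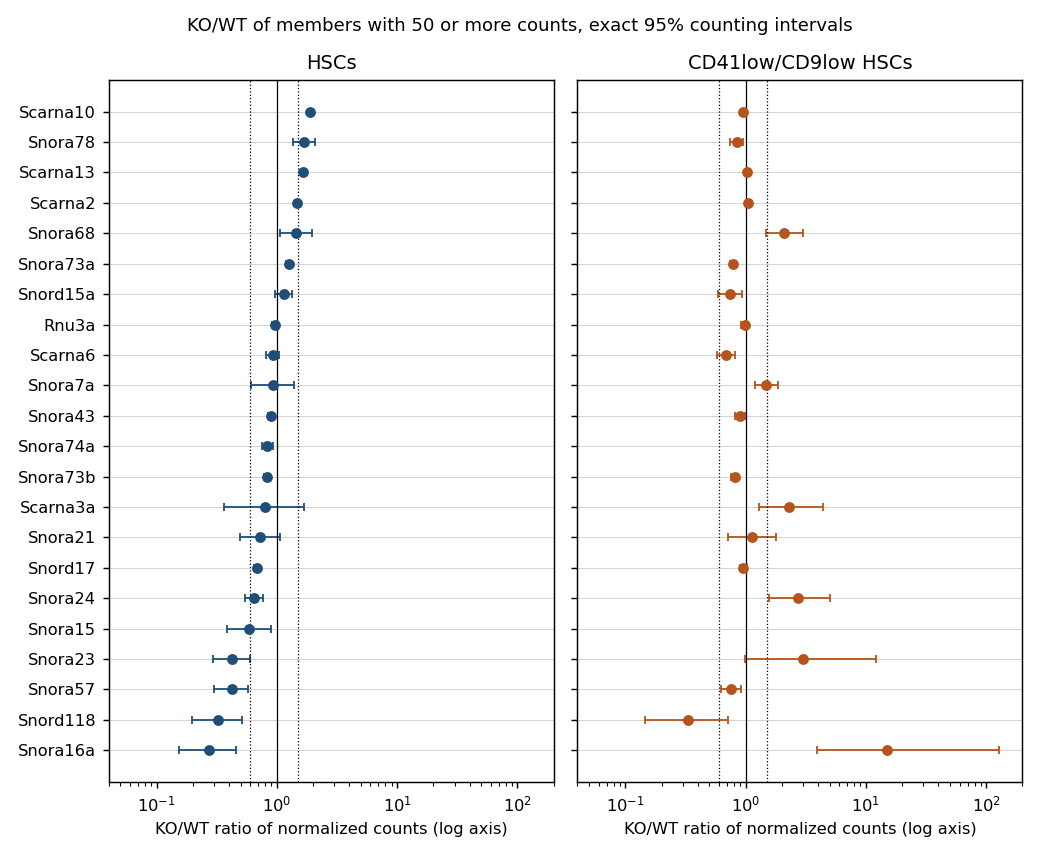
KO/WT ratio of normalized counts (log axis) of the members with 50 or more counts in any library, in HSCs (left) and CD41low/CD9low HSCs (right), ordered by the HSC ratio, with exact 95% counting intervals; the solid line marks 1 and dotted lines mark 0.6 and 1.5. Scarna10, Snora78 and Scarna13 lie above 1.5 in HSCs and near or below 1 in CD41low/CD9low HSCs, and Snora16a lies below 0.6 on the left and above 1.5 on the right.

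Of the 25 members with a ratio in both populations, 14 had the same direction, 4 of them higher and 10 lower in both KO libraries. In the others, 6 were lower in KO HSCs and higher in KO CD41low/CD9low HSCs, and 5 the reverse. The share of all genes with the same direction was not computed, so these counts are descriptions only. In edgeR's quasi-likelihood test of genotype over all 4 libraries, with population as covariate, 0 of 41 members were higher in KO (0.566% of all genes tested) and 0 lower (0.215%). At an unadjusted p under 0.05 there was 1 member, Scarna13 (log2 ratio 0.38, edgeR unadjusted p = 0.0384, adjusted p = 0.441). DESeq2 also called 0 in either direction. Adjusted p in edgeR was 0.555 for Scarna2, 0.469 for Scarna10 and 0.494 for Snord118. The median genotype log2 ratio was −0.30 over the members and −0.0029 over all genes.

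A host gene, that is a gene on the same strand that contains the row, was listed in both pairs for 28 members, in 27 different hosts; 8 of these members lie in ribosomal protein genes. Of the 41 members, 14 lie in introns, 19 overlap an exon of another annotated gene and 8 lie outside genes. In HSCs 15 of 25 members had a lower KO/WT ratio than their host and 10 a higher one, with a median difference of −0.23 on the log2 scale. In CD41low/CD9low HSCs 10 of 19 were below and 9 above, with a median of −0.05. Host log2 ratios ran from −0.75 to 1.21 in HSCs and those of their members from −2.60 to 2.04. The ends of the member range were Snord69, with 15 and 2 counts in WT and KO, and Snora75, with 3 and 10. Counting error is wide at such counts, so the spread of members and hosts cannot be compared directly. In edgeR's test of genotype 0 hosts were called.

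Single members departed from their hosts. Scarna10 had a KO/WT ratio of 1.89 in HSCs, while its host Ncapd2, a condensin subunit, had 13717 and 8228 counts in WT and KO HSCs and a ratio of 0.740 (0.720 to 0.761). Snora16a, with a ratio of 0.274 in HSCs, had the host Snhg12 at 0.683 (0.648 to 0.719). Snora78 and Snhg9 were both above 1 in HSCs, with Snhg9 at 2.31 (1.22 to 4.55). Between the pairs, Snora7a had a log2 difference of 3.33 and its host Rpl32, a ribosomal protein gene, 0.29 (edgeR adjusted p = 0.195). Snord17 was higher in CD41low/CD9low HSCs and its host Snx5 lower (log2 difference −0.44, edgeR adjusted p = 0.0408). Of the 27 hosts, 5 were called higher (7.36% of all genes) and 7 lower (10.6%) in CD41low/CD9low HSCs, with a median log2 difference of −0.17.

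**Figure D5:**
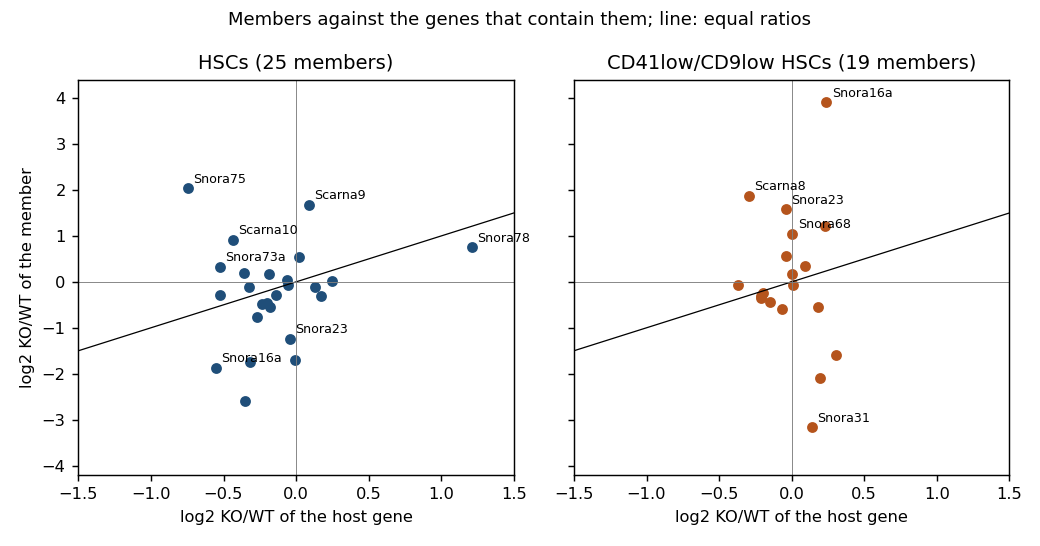
Log2 KO/WT ratio of each member against that of its host gene in HSCs (left, 25 members) and CD41low/CD9low HSCs (right, 19 members); the diagonal marks equal ratios. Host ratios stay between −0.75 and 1.21 in HSCs and between −0.37 and 0.30 in CD41low/CD9low HSCs, while the members spread more widely, with the ends of their range at few counts.

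The proteins that these RNAs work with were read from lists of 72 genes, all of which were tested. In HSCs 3 of the 72 had a KO/WT ratio above 1.5 (14.1% of all genes tested) and 4 below 0.6 (10.3%), with a median ratio of 0.857. In CD41low/CD9low HSCs 4 were above (13.4% of all genes) and 3 below (12%), with a median of 0.976. In edgeR's genotype test 0 were called, and between the pairs 4 were higher (7.36% of all genes) and 5 lower (10.6%) in CD41low/CD9low HSCs. All 4 proteins of the C/D particle core were below 1 in HSCs, from 0.655 for the methyltransferase Fbl to 0.807 for Nop56. Their intervals lay below 1, as did those of 33.7% of all genes tested. Of the H/ACA core, Dkc1, the pseudouridine synthase, had a ratio of 0.793 (0.768 to 0.818) and Gar1 of 0.565 (0.509 to 0.626) in HSCs. In CD41low/CD9low HSCs the C/D core ran from 0.860 to 0.914 and the H/ACA core from 0.908 to 1.08. There Dkc1 stood at 1.08 (1.01 to 1.15) and Gar1 at 1.05 (0.860 to 1.28). Between the pairs, Dkc1 was lower in CD41low/CD9low HSCs (log2 difference −0.68, edgeR adjusted p = 0.0106), as was Snu13 of the C/D core (−0.60, edgeR adjusted p = 0.0374). No other protein of either core was called, and the summed RNAs of both classes were higher there. Of the proteins that assemble these particles, Ruvbl2 (0.56, edgeR adjusted p = 0.0206) and Pih1d1 (0.58, edgeR adjusted p = 0.0234) were higher there and 0 were called lower.

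Among the proteins of the spliceosome, Snrpc, a U1 protein, had 4517 counts in WT and 1431 in KO HSCs (ratio 0.391, 0.368 to 0.415), and the Sm proteins Snrpd1 and Snrpd3 had ratios of 0.591 (0.560 to 0.623) and 0.520 (0.481 to 0.563). Above 1.5 in HSCs were Rnpc3 of the minor spliceosome (1.58, 1.48 to 1.68), Snapc3 of snRNA transcription (1.88, 1.77 to 2.0) and Tgs1, which makes the cap of these RNAs (1.65, 1.57 to 1.74). In CD41low/CD9low HSCs the same 3 genes had ratios of 1.10, 1.21 and 1.25, and none passed 1.5. Of the other structured RNAs, Rpph1, the RNA of RNase P, was higher in CD41low/CD9low HSCs (3677 and 4090 CPM in WT and KO HSCs, 17660 and 16680 CPM in the CD41low/CD9low pair; log2 difference 2.08, edgeR adjusted p = 7.3e-05). So were Rmrp (log2 difference 0.88, edgeR adjusted p = 0.00332) and the telomerase RNA Terc (1.20, edgeR adjusted p = 0.00137). Rn7sk stood at 6225 and 9375 CPM in WT and KO HSCs and at 12300 and 12360 CPM in the CD41low/CD9low pair (log2 difference 0.63, edgeR adjusted p = 0.0598). Rny1 had 70 and 31 counts in the HSC pair and 3 and 2 in the CD41low/CD9low pair, and Rny3 had 30 and 31 against 2 and 0.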

How the data were processed

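RNA of the 4 pools was extracted as total RNA and sequenced after poly(A) selection with a stranded kit. Per the submitters' processing notes and the methods, the authors aligned reads with TopHat2 2.0.10 to mm10 (GRCm38), used SAMtools, and counted reads on Ensembl genes with HTSeq. They deposited raw counts per gene with no normalization. Which HTSeq settings and which annotation release were used is not given in the sources used here. The summary lines of each table (reads on no feature, ambiguous, not unique) were left out of totals and tests, and reads on no feature came to between 60.1 and 105.3 for every 100 counts on genes.

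Biotypes, hosts, coordinates and sequences were taken from GENCODE M21, which need not be the release used for the counting, so that overlaps with other exons may differ. The tables list 42367 genes, 37140 of them in both pairs. Within a population, counts were scaled with median-of-ratios factors computed on the pair, and the KO/WT ratio was given with an exact Clopper-Pearson 95% interval for genes with at least 10 counts in a library; the cutoffs were 1.5 and 0.6. Genotype and population were tested with edgeR 4.0.16 (glmQLFit, TMM normalization, current method with prior degrees of freedom of 10.6) in R 4.3.3. On simulated counts of 15555 genes, some of them changed 3-fold, the genotype test recovered 147 of 193 changed genes with 4 false calls. The population test recovered 138 of 191 with 1. The simulation gave each gene the same fixed spread between libraries, which was set beforehand and not estimated from these data. Its recovery is therefore not the power of the tests for these members. Alternatives were other normalizations, filters and cutoffs, DESeq2 1.42.0, and, chosen after seeing the data, edgeR's earlier quasi-likelihood method. Named members were the 12 with most counts, the 5 highest and 5 lowest by each ratio with 50 or more counts, the U3, U7 and minor spliceosome rows, and those nearest the minimum of 10 counts, with their hosts. The members and all lists were chosen with earlier results of these data known. Scripts used Python 3.11.15, numpy 2.4.6, scipy 1.17.1, pandas 2.3.3 and matplotlib 3.10.9. Values that rest on 1 further lineage marker and 1 further host gene are not reported here.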

Additional observations from a re-analysis of the deposited data

Results flagged for a closer look

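For 5 members the KO/WT ratio lay on opposite sides of 1 in the populations, with a counting interval off 1 in both. Over all genes tested the interval lay above 1 in 35.6% and below 1 in 33.7% in HSCs. In CD41low/CD9low HSCs these shares were 31.1% and 30.4%. The share of all genes on opposite sides was not computed, so the count of 5 is a description only. Snora16a had a ratio of 0.274 in HSCs and of 15.0 in CD41low/CD9low HSCs (2 counts in WT and 45 in KO there). Snora24 had ratios of 0.648 and 2.71. In the other direction, Snora73a had ratios of 1.25 and 0.786, Snora78 of 1.69 and 0.842, and Scarna10 of 1.89 and 0.954. With 1 library per genotype and population, the difference between the populations was not tested.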

How the results depend on the processing

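Under TMM factors or total counts, the members past the cutoffs numbered 5 above and 10 below in HSCs and 7 above and 6 below in CD41low/CD9low HSCs, as before. With at least 50 counts required, there were 3 above and 5 below in HSCs and 3 above and 0 below in CD41low/CD9low HSCs. With at least 1 count and a pseudocount of 1, over all rows of the classes, these were 17 and 27 in HSCs and 12 and 15 in CD41low/CD9low HSCs. With cutoffs of 2 and 0.5, there were 2 above in HSCs. Without members that overlap an exon of another gene, there were 2 above and 6 below in HSCs and 3 above in CD41low/CD9low HSCs. The shares of all genes past the cutoffs under these settings are not given here, so these counts are descriptions only. The settings differ by construction in the rows counted or in the cutoffs, and other causes were not tested. Between the pairs, 0 members were lower by DESeq2 and 2 by edgeR's earlier method, against 1; for Snora74a the DESeq2 adjusted p was 0.0503, and Snora24 was called by the earlier method (edgeR adjusted p = 0.0403). With at least 50 counts Snora68 was called too (edgeR adjusted p = 0.0478), which made 10 members higher against 9. The cause was not tested. The ratio of CD41low/CD9low HSCs to HSCs became 1.71 for C/D, 1.88 for H/ACA, 1.52 for scaRNAs and 2.31 for Rnu-named RNAs without the most counted row of each. Without rows that overlap another exon it was 3.05 for H/ACA, 5.195 for scaRNAs and 2.31 for Rnu-named RNAs, and for scaRNAs 3.49 and 3.47 with protein-coding genes or shared genes as denominator. In the alternatives run, 0 members were called for genotype. The sign of some uncalled log2 ratios reversed. For genotype, under DESeq2 and under edgeR's earlier method, Snora15 moved from −0.64 to 1.04 and 0.57, Snora16a from −0.35 to 0.83 and 0.69, Snora23 from −0.89 to 0.067 and 0.0044, Snora24 from −0.32 to 0.34 and 0.30 and Snora33 from −0.90 to 1.33 and 0.49. Snora34 moved from 0.026 to −0.25 under DESeq2. Between the pairs, Snora16a moved from 0.46 to −0.34 and −0.21 under the same settings, and Snora43 from 0.026 to −0.0027 with at least 1 count required. The cause was not tested. No KO/WT ratio within a population changed side of 1. No paired analysis was possible because each group has 1 library and the replicate numbers only name samples. Leaving out a replicate was not possible either.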

Other observations

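Rows of the same biotypes with other symbols were mostly predicted genes named Gm. Of 2716 such rows listed in both pairs, 69 had 10 or more counts in a library and 10 had 1000 or more in all. Summed, the snRNA rows stood at 216 and 117.4 CPM in WT and KO HSCs and at 334 and 288 CPM in the CD41low/CD9low pair, with a KO/WT ratio of 0.551 (0.532 to 0.570) in HSCs and one of 0.863 (0.829 to 0.899) in the CD41low/CD9low pair. Gm22513, the most counted of them, had 4846 counts in WT and 2093 in KO HSCs (ratio 0.533, 0.506 to 0.561) and 2403 and 3048 in the CD41low/CD9low pair (0.846, 0.801 to 0.892). Gm24265 and Gm24407 had ratios of 0.514 and 0.535 in HSCs. The edgeR adjusted p for genotype was 0.205, 0.288 and 0.499 for these 3 rows. Predicted scaRNAs differed in direction. Gm22009 was on the side of the summed named scaRNAs in HSCs, with 9648 and 11344 counts and a ratio of 1.45 (1.41 to 1.49). Its ratio was 0.925 (0.892 to 0.960) in the CD41low/CD9low pair. Gm25395 was on the other side in HSCs, with 1226 and 673 counts and a ratio of 0.678 (0.616 to 0.745). In the CD41low/CD9low pair it had 624 and 698 counts and a ratio of 0.746 (0.668 to 0.832). The predicted snoRNA Gm24119 had 860 counts in WT and 76 in KO HSCs (ratio 0.109, 0.0851 to 0.138) and 121 and 102 in the CD41low/CD9low pair (0.562, 0.428 to 0.738), with an edgeR adjusted p for genotype of 0.0585.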
